A study of Rattus norvegicus with 12 samples.

Results

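The genes of the cytosolic ribosomal proteins were followed through left ventricular tissue of 12 male Sprague-Dawley rats in 3 groups of 4, named Sham, MI and iCarP+/Light+. A row of the count table was a member if it was protein-coding and carried a standard symbol of a large subunit (Rpl), small subunit (Rps, Rpsa) or stalk (Rplp) protein. This rule took 90 of the 34599 rows, which carried 84 symbols. Of 77 standard names looked for, 69 had a member row, 15 member rows were paralogs or numbered copies, and 4 symbols had several rows. Of the 90 rows, 83 had enough counts to be tested. Sham rats had a thoracotomy without ligation, and MI rats had the left anterior descending coronary artery tied, which starves the downstream muscle of blood. In iCarP+/Light+ rats the same ligation was followed by injection of Chlorella, a green alga that releases oxygen in light, into the infarcted wall. A patch with a built-in optical fibre was then fixed to the heart surface with an adhesive and switched on, so these rats differed from MI rats in alga, patch, adhesive and light together. Tissue of the infarct region was taken 1 day after surgery, and the labels name no genetic alteration in any group.

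A ribosome is built from ribosomal RNA and one copy of almost every ribosomal protein, while the stalk carries several copies of the acidic proteins P1 and P2 on a P0 base and recruits the factors that drive translation. Mammalian cells make these proteins in step: most of their mRNAs start with a run of pyrimidine bases, the 5′ terminal oligopyrimidine motif, through which growth signals set their translation. Some proteins have a second, tissue-restricted gene. Rpl3l is the form of Rpl3 found in heart and skeletal muscle, Rpl10l is a retrotransposed form of Rpl10 best known from the testis, and Rps27l is a form of Rps27 that p53 can induce.

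The first bases of these genes are shown because most of the matched members share a tract there, and because Rps27 and its paralog Rps27l differ in it. Windows of 30 bases, 15 before and 15 from the annotated start, were read from RefSeq promoters of the GRCr8 build. Capitals mark a tract, defined as a C followed by at least 4 C or T bases that begins within 5 bases of the start.
Rpl10, chrX:157205835-157205864, plus strand: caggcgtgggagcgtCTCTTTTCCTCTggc
Rplp0, chr12:46718376-46718405, minus strand: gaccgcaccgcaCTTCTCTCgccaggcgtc
Rplp1, chr8:71290858-71290887, minus strand: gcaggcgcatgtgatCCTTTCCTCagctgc
Rps27, chr2:177964592-177964621, minus strand: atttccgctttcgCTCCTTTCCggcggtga
Rps27l, chr8:76443643-76443672, plus strand: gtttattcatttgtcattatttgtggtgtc
Rpl3, chr7:113507976-113508005, minus strand: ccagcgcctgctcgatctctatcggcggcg
Rpl3l, chr10:14258431-14258460, plus strand: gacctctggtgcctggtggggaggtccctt
Rps2, chr10:14251833-14251862, plus strand: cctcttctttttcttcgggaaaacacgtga

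Rpl10, Rplp0, Rplp1 and Rps27 held a tract at or beside the start, while Rps27l, Rpl3, Rpl3l and Rps2 held none by this rule. The Rps2 window opens with an unbroken run of C and T bases that begins further upstream than the rule allows and ends at the start base. Of the 90 member rows, 61 matched a RefSeq window by symbol and chromosome, and 35 of these (57.4%) had a tract within 5 bases of the start, against 17.0% of all 27457 promoters. The start base itself was a C followed by at least 4 C or T bases, alone or inside a tract that began earlier, in 31.1% of the matched members and in 2.63% of all promoters. The word CTTTC on the coding strand of the 30-base window was in 37.7% of members and 3.62% of all promoters, and on the other strand in 1.64% and 3.77%. CTTTC can lie inside a tract, so these counts overlap. These are letters at one annotated base per gene, and a gene without a tract there may use another start.

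Gene counts summed to between 14064414 and 17136958 in a rat. Ribosomal protein rows made up 2.01% ± 0.270 (SD, n = 4) of them in the Sham group. The share was 4.21% ± 0.490 (SD, n = 4) after MI and 3.24% ± 0.374 (SD, n = 4) with the illuminated patch. The groups did not overlap on this scale: Sham rats ran from 1.73 to 2.32%, iCarP+/Light+ rats from 2.88 to 3.60% and MI rats from 3.82 to 4.91%. Shares of all counts also depend on what else is in the library, and genes of the mitochondrial genome held 22.8 to 28.9% of Sham counts, 8.52 to 11.5% of MI counts and 7.14 to 14.2% of iCarP+/Light+ counts. With mitochondrial genes left out of the total, MI rats ran from 4.18 to 5.42% and iCarP+/Light+ rats from 3.10 to 4.19%, which overlapped, with Sham rats below at 2.35 to 3.01%. After TMM scaling, edgeR's correction for library composition, the members summed to 21539 to 27146 CPM (counts relative to the scaled library size) among Sham rats, to 30992 to 42867 CPM among MI rats and to 30001 to 34406 CPM among iCarP+/Light+ rats. On this scale MI stayed above Sham, and MI and iCarP+/Light+ rats overlapped. CPM values below are TMM-scaled.

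**Figure D1:**
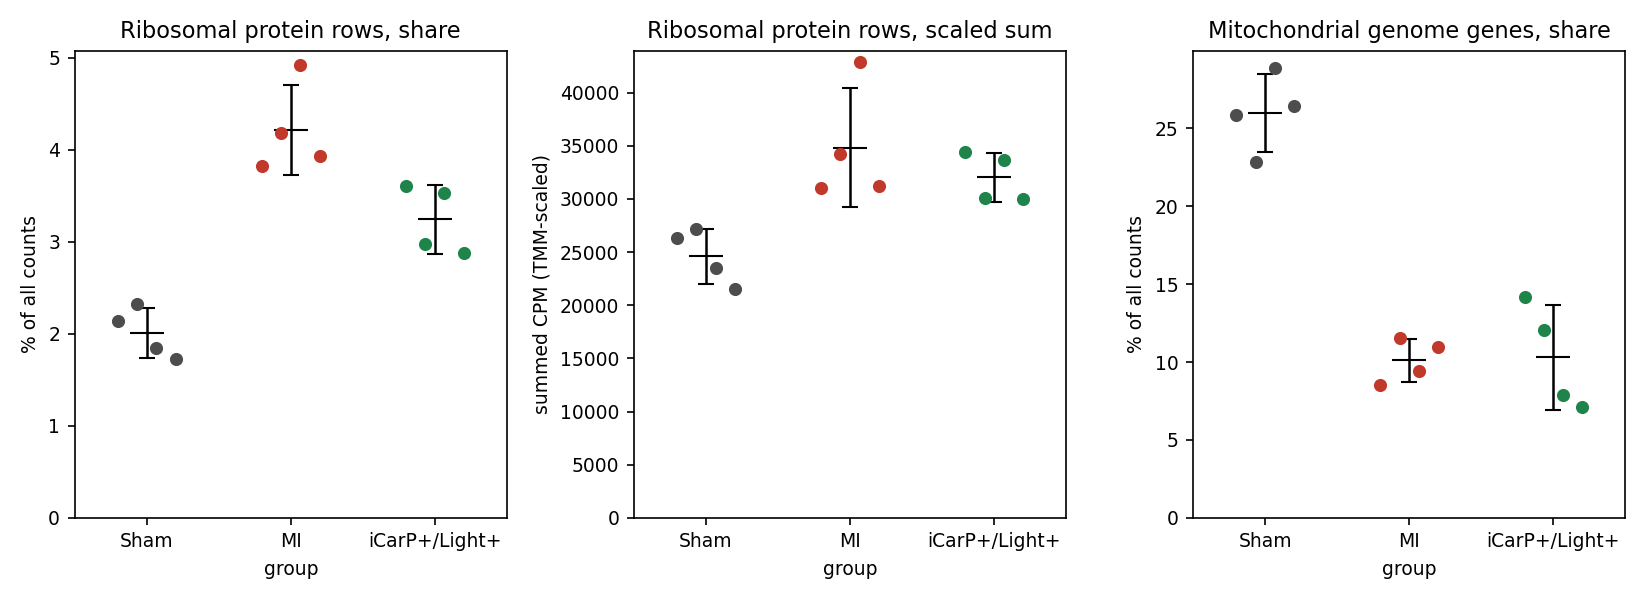
Each point is 1 rat, the horizontal tick is the group mean and the bar is the SD (n = 4); the panels give the ribosomal protein rows as a percent of all counts, the same rows as summed TMM-scaled CPM, and mitochondrial genome genes as a percent of all counts. The share of all counts separates the 3 groups, a separation of MI from iCarP+/Light+ rats that is lost without mitochondrial counts, and the scaled sums of MI (30992 to 42867) and iCarP+/Light+ rats (30001 to 34406) overlap.

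MI against Sham asks how the family stood 1 day after the coronary artery was tied. By edgeR's quasi-likelihood test, adjusted by the Benjamini-Hochberg method across the 15101 genes in the fit, 47 of the 83 tested members were higher in MI and 2 were lower, Rpl3l and Rps29. That is 56.6% of members called higher, where 30.2% of all genes were called higher and 33.6% lower. The median log2 fold change of the members was 0.45, against -0.06 over all genes, and 5 of 83 members lay below 0 (6.02%, against 52.3% of all genes). In 35 members every MI rat exceeded every Sham rat, and in 1 every MI rat was below, where 27.6% and 31.4% of all genes separated in these directions. The quartiles of the members were 0.28 and 0.62 on the log2 scale. Large and small subunit genes gave similar counts, with 24 of 40 large subunit genes higher and none lower, and 17 of 29 small subunit genes higher and 1 lower. Their median log2 fold changes were 0.46 and 0.43. Of the 3 stalk genes 2 rose, and of the 11 tested paralog and copy rows 4 rose and 1 fell.

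These counts depend on how libraries are scaled, since total counts alone move the median of all genes from -0.06 to 0.52 and the share of higher genes among all called from 47.3% to 73.5%. With that scaling 74 members were higher and 1 lower, where 51.0% of all genes were higher and 18.4% lower. Measured from the median over all genes tested, the members' median was 0.51 with TMM and 0.50 with total counts. Rescaling a library shifts all its genes nearly alike, so this difference hardly depends on the scaling and is no test of it. MI rat 4 had the highest level of its group in 73 of the 83 members, and without it 39 members were called higher, with a median of 0.33.

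**Figure D2:**
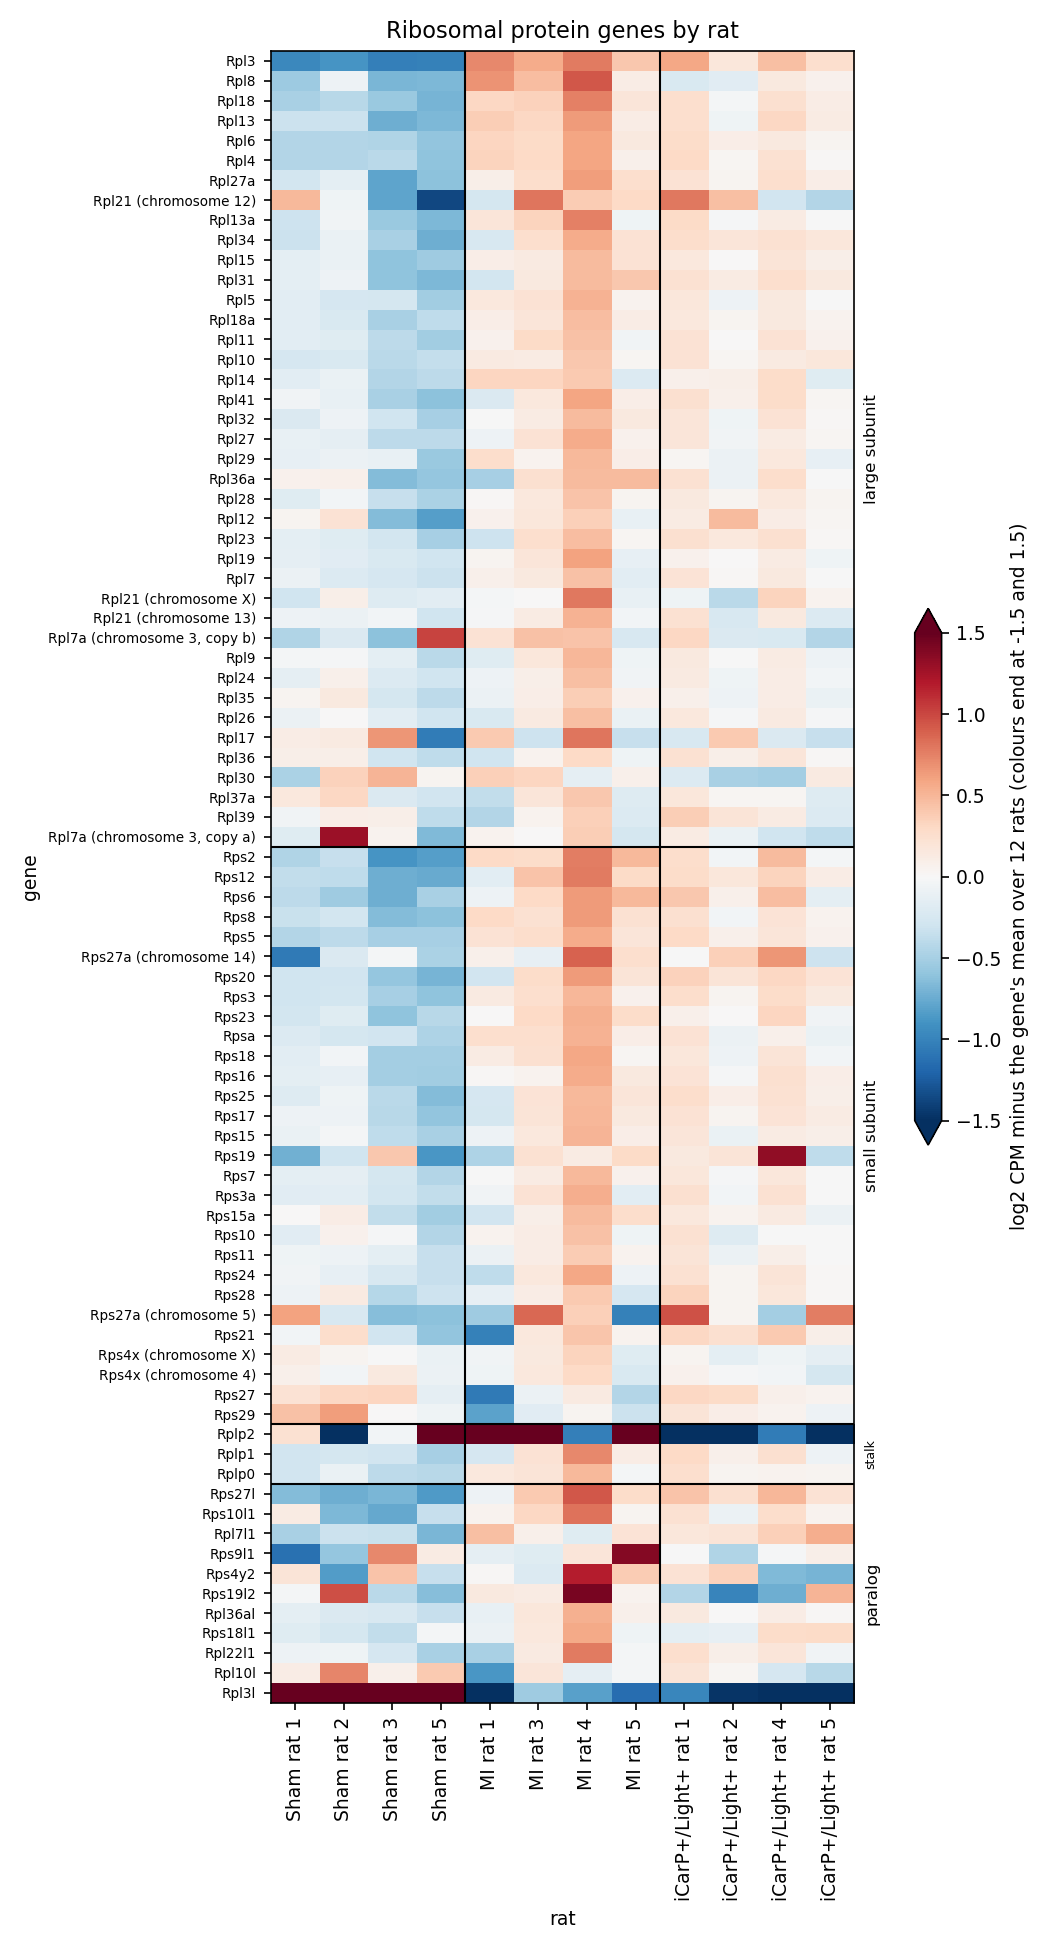
Rows are the 83 tested ribosomal protein genes grouped as large subunit, small subunit, stalk and paralog rows and sorted within each group by MI minus Sham, columns are the 12 rats, and colour is log2 CPM minus the gene's own mean over all rats, ending at -1.5 and 1.5. Most rows are blue in Sham and red in MI, most deeply in MI rat 4, while Rpl3l shows the opposite pattern and Rplp2 and the Rps27a row of chromosome 5 change from rat to rat within a group.

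RNA levels of cell type markers moved with the infarct. Of 10 cardiomyocyte markers 9 were lower in MI than in Sham, and their sum, 51835 to 56655 CPM in Sham, was 3737 to 7605 CPM after MI and 3191 to 8308 CPM with the patch. All 9 tested leukocyte markers were higher in MI, with a sum of 242 to 425 CPM in Sham, 4158 to 7164 CPM after MI and 6321 to 11452 CPM with the patch. Of the other lists, 5 of 6 fibroblast, 5 of 5 endothelial and 5 of 6 red blood cell markers were lower in MI. No marker in these lists was at 0 in all rats. In whole tissue, fewer cells of a type and less RNA per cell cannot be told apart, and the part of these shifts in the members' values was not tested.

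The steepest rise was in Rpl3, a core protein beside the peptidyl transferase centre of the large subunit (ENSRNOG00000016896, chromosome 7 from 121297355 to 121311565 on the minus strand, rn6). Its levels were 319, 338, 308 and 309 CPM in the Sham rats, 1028, 920.2, 1072 and 826 CPM in MI, and 938, 703, 858 and 743 CPM in iCarP+/Light+ rats. Every rat with an infarct lay above every Sham rat, and the Sham rats stood close together. MI exceeded Sham 3.02-fold (log2 fold change 1.59, SE 0.13, edgeR adjusted p = 4.08e-07).

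Its muscle paralog Rpl3l (ENSRNOG00000014641, chromosome 10 from 14094754 to 14105308 on the plus strand) moved the other way. Its levels were 365, 336, 312 and 294 CPM in Sham, 11.8, 33.6, 27.8 and 22.0 CPM in MI, and 24.8, 17.5, 10.8 and 13.9 CPM in iCarP+/Light+ rats. No infarcted rat came near the Sham range, and MI and iCarP+/Light+ rats overlapped. The level in MI was 13.8-fold lower than in Sham (log2 fold change -3.78, SE 0.31, edgeR adjusted p = 5.30e-07). In Sham hearts the paralogs gave nearly equal counts, 0.952 to 1.14 of Rpl3l for each of Rpl3, and in MI the ratio was 0.0116 to 0.0366. The mean log2 ratio in MI minus Sham was -5.46, a 43.9-fold difference, and no rat overlapped. A two-sided exact permutation test, with 70 ways to arrange the rats, gave p = 0.0286, the smallest this design allows. Adjusted over the 15 ratio comparisons made it was 0.0536 (exact permutation, Benjamini-Hochberg), and none of the 15 passed 0.05 after adjustment.

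Rpl3l was also set against the heart muscle markers themselves. Its log2 CPM minus the mean log2 CPM of the 10 cardiomyocyte markers ran from -3.18 to -2.94 in Sham rats, from -4.22 to -3.64 in MI rats and from -4.71 to -3.88 in iCarP+/Light+ rats. Sham lay above both infarcted groups without overlap, and the infarcted groups overlapped. That mean includes Myh7, a myosin heavy chain that did not pass (log2 fold change 0.63, edgeR adjusted p = 0.111). Without Myh7, a choice made after its values were seen, the difference ran from -3.46 to -3.24 in Sham rats, from -4.15 to -3.58 in MI rats and from -4.61 to -3.78 in iCarP+/Light+ rats. Sham still lay above both infarcted groups, by a smaller margin. Myh6, the main adult myosin heavy chain of the rat ventricle, fell further than Rpl3l (log2 fold change -4.73, SE 0.34, edgeR adjusted p = 2.09e-07). No test was run on these differences.

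**Figure D3:**
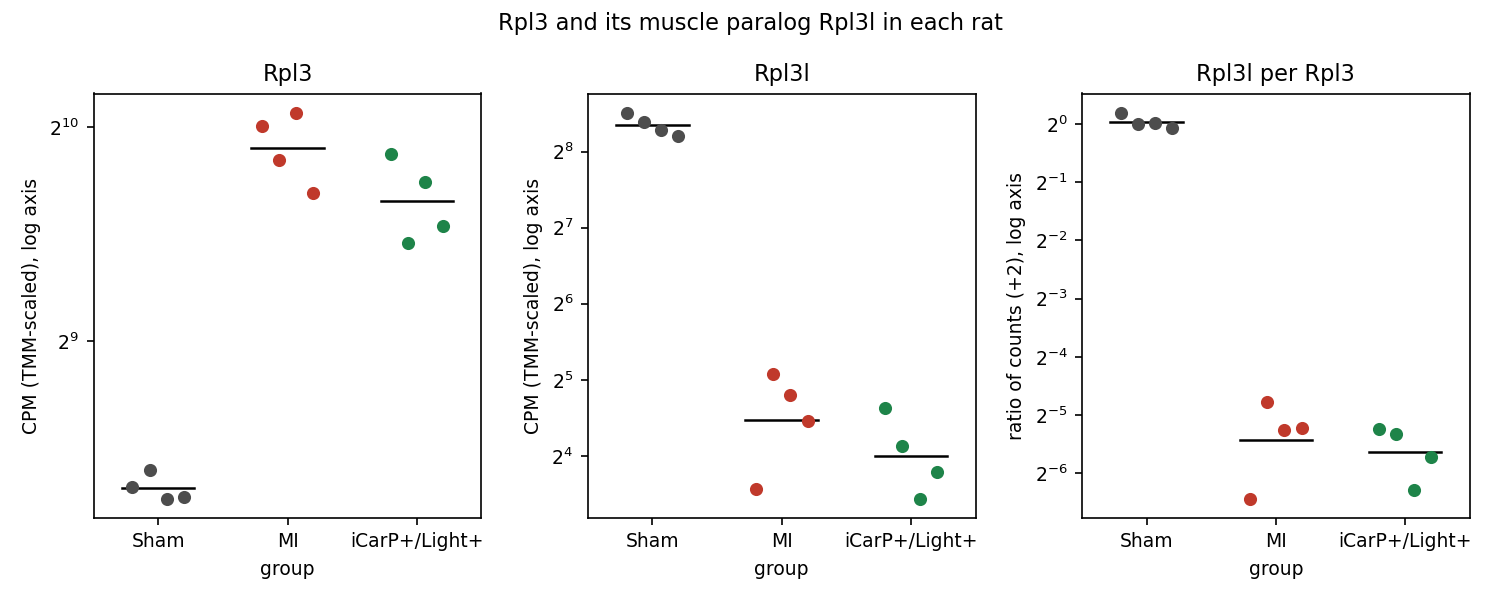
Points are rats, lines are means of the log2 values of the 4 rats in a group, and all vertical axes are logarithmic; the panels show Rpl3 and Rpl3l in TMM-scaled CPM and the ratio of Rpl3l to Rpl3 counts with 2 counts added to each. Rpl3 rises from 308 to 338 CPM in Sham to 826 to 1072 CPM in MI, Rpl3l falls from 294 to 365 CPM to 11.8 to 33.6 CPM, and the ratio drops from 0.952 to 1.14 to at most 0.0366.

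Rps27l was the paralog with the largest gain. Its levels were 40.4, 38.2, 39.5 and 35.2 CPM in Sham, 60.3, 83.6, 121 and 77.0 CPM in MI, and 85.5, 75.0, 89.4 and 74.1 CPM in iCarP+/Light+ rats. All infarcted rats were above all Sham rats, 2.23-fold in MI (log2 fold change 1.16, SE 0.17, edgeR adjusted p = 6.72e-05). Rps27 itself did not pass the test, with 231, 247, 249 and 181 CPM in Sham and 94.9, 187, 217 and 147 CPM in MI (log2 fold change -0.49, SE 0.21, edgeR adjusted p = 0.0549). It passed as lower with limma-voom (adjusted p = 0.0372), without Sham rat 5 (edgeR adjusted p = 0.0369) and without MI rat 4 (edgeR adjusted p = 0.0130), but in no other fit that left out 1 rat, and was -0.30 without MI rat 1. The ratio of Rps27l to Rps27 counts ran from 0.155 to 0.195 in Sham rats, from 0.447 to 0.635 in MI rats and from 0.310 to 0.427 in iCarP+/Light+ rats. The 3 groups did not overlap, and each of the 3 comparisons had an exact permutation p of 0.0286 (adjusted p = 0.0536). The mean log2 ratio differed by 1.65 in MI against Sham, -0.58 in iCarP+/Light+ against MI and 1.07 in iCarP+/Light+ against Sham. Rps27 is a member under 400 bases and Rps27l is not. The median log2 CPM of members under 400 bases minus that of longer ones set the groups in the same order. Its means were -0.64 in Sham, -0.91 in iCarP+/Light+ and -1.21 in MI rats. The part of length in this ratio was not tested.

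Other pairs moved less. The ratio of Rpl10l to Rpl10 was 0.0253 to 0.0381 in Sham and 0.00970 to 0.0204 in MI, a log2 difference of -1.03 (exact permutation p = 0.0286, adjusted p = 0.0536). Rpl10, which joins the large subunit late and completes it, rose (log2 fold change 0.49, SE 0.11, edgeR adjusted p = 0.00186), while Rpl10l had a log2 fold change of -0.52 that did not pass (edgeR adjusted p = 0.0619) but did with limma-voom (adjusted p = 0.0464) and without MI rat 3 (edgeR adjusted p = 0.0343). It passed in none of the other fits that left out 1 rat, and was -0.34 without MI rat 1. With total counts alone, that value of Rpl10l was 0.05 and that of Rps27 was 0.08, so their directions rest on the scaling. The ratio of Rpl7l1 to Rpl7 was 0.0444 to 0.0551 in Sham and 0.0380 to 0.0760 in MI, which overlapped (log2 difference 0.25, exact permutation p = 0.343, adjusted p = 0.571). With the patch it was 0.0570 to 0.0860, above Sham without overlap (log2 difference 0.47, exact permutation p = 0.0286, adjusted p = 0.0536). In MI both genes rose, by 0.61 (SE 0.14, edgeR adjusted p = 0.00238) and 0.35 (SE 0.13, edgeR adjusted p = 0.0315) on the log2 scale. The call for Rpl7 was lost, with adjusted p between 0.0548 and 0.0878, when any of Sham rat 2, Sham rat 3, Sham rat 5, MI rat 3 or MI rat 4 was left out. Rpl36al and Rpl36a stayed near a ratio of 1 in every group, 0.792 to 1.39, and the log2 ratio in MI minus Sham was -0.04 (exact permutation p = 0.886). Rpl22l1, whose partner Rpl22 has no row of that name here, had a log2 fold change of 0.38 that did not pass (SE 0.21, edgeR adjusted p = 0.130). It was 0.56 and passed without MI rat 1 (edgeR adjusted p = 0.0194), and was 0.11 without MI rat 4. Rpl26 and Rpl39, partners of paralogs that were not tested, had log2 fold changes of 0.22 (edgeR adjusted p = 0.198) and 0.02 (edgeR adjusted p = 0.931). Leaving out 1 rat moved Rpl26 between 0.083 (without MI rat 4) and 0.33 (without iCarP+/Light+ rat 5).

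Among the remaining core proteins, Rps2, which lines the path of the mRNA in the small subunit, had the next largest rise. Its levels were 597, 644, 444 and 462 CPM in Sham, 1005, 989, 1387 and 1143 CPM in MI and 979, 794, 1136 and 803 CPM in iCarP+/Light+ rats. The infarcted rats all lay above the Sham rats, 2.11-fold in MI (log2 fold change 1.08, SE 0.17, edgeR adjusted p = 0.000128). Rps6, the target of S6 kinase downstream of mTOR, went from 16.2 to 20.5 CPM in Sham to 25.6 to 42.0 CPM in MI without overlap (log2 fold change 0.90, SE 0.17, edgeR adjusted p = 0.000499). Rpl5 and Rpl11, which carry the 5S RNA into the ribosome and can bind the p53 regulator Mdm2, each rose (log2 fold changes 0.55 and 0.50, edgeR adjusted p = 0.00243 and 0.00497). Rpl13a, often used as a reference gene for PCR, rose as well (log2 fold change 0.72, SE 0.18, edgeR adjusted p = 0.00310). Its row was low, at 31.2 to 47.9 CPM in Sham and 47.8 to 84.5 CPM in MI. No rows under other names were summed for Rpl13a or Rps6. Rpsa, also known as the laminin receptor, went from 831 to 997 CPM in Sham to 1229.7 to 1648 CPM in MI (log2 fold change 0.59, SE 0.13, edgeR adjusted p = 0.00123). Rps19, the protein most often mutated in Diamond-Blackfan anaemia, did not pass, at 24.3 to 59.1 CPM in Sham and 32.2 to 54.5 CPM in MI (log2 fold change 0.36, SE 0.35, edgeR adjusted p = 0.396). Its value was 0.69 without Sham rat 3 and 0.20 without Sham rat 5.

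The stalk genes Rplp0 and Rplp1 moved with the rest of the family. Rplp0 was at 1483, 1682, 1382 and 1353 CPM in Sham, 2016, 2069, 2531 and 1775 CPM in MI and 2150.2, 1864, 1873 and 1855 CPM in iCarP+/Light+ rats. Rplp1 was at 597, 606, 597 and 516 CPM in Sham, 612, 846, 1201 and 787 CPM in MI and 899, 770.1, 860.4 and 692 CPM in iCarP+/Light+ rats. For both genes every infarcted rat was above every Sham rat, though MI rat 1 stood only just above for Rplp1. The log2 fold changes in MI were 0.51 for Rplp0 (SE 0.13, edgeR adjusted p = 0.00502) and 0.57 for Rplp1 (SE 0.18, edgeR adjusted p = 0.0127). These genes were also among the 5 highest per listed kilobase, at 1679.9 for Rplp0 and 1509 for Rplp1 CPM per kb over the 12 rats, with Rpl41 (1544), Rps20 (1189) and Rpsa (1148). Rpl41, the smallest ribosomal protein, and Rps20 rose by 0.48 (edgeR adjusted p = 0.0291) and 0.69 (edgeR adjusted p = 0.00309) on the log2 scale. The call for Rpl41 was lost without Sham rat 3, Sham rat 5 or MI rat 4, with adjusted p of 0.0786, 0.0881 and 0.0927. Among the 5 lowest per listed kilobase were Rpl8 (8.79 CPM per kb), Rpl13a (19.1), Rpl10l (22.0), Rps9l1 (24.4) and Rps4y2 (28.8). Rps9l1 and Rps4y2 did not pass (log2 fold change 0.51 for each, edgeR adjusted p = 0.270 and 0.224). Leaving out 1 rat moved Rps9l1 between 0.020 (without MI rat 5) and 0.90 (without Sham rat 3), and Rps4y2 between 0.15 (without MI rat 4) and 0.72 (without Sham rat 3).

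Rps29, a small zinc-binding protein, was the other member called lower. Its levels were 269, 306, 199 and 189.9 CPM in Sham, 113, 176, 203 and 159 CPM in MI, and 226, 213, 205 and 188 CPM in iCarP+/Light+ rats. MI and Sham overlapped through MI rat 4 (log2 fold change -0.57, SE 0.19, edgeR adjusted p = 0.0178). The call was lost without Sham rat 1, Sham rat 2, MI rat 1 or iCarP+/Light+ rat 5, with adjusted p between 0.0505 and 0.0655, and with total counts alone the log2 fold change was -0.00. Rps29 is listed at 305 bases, among the shorter members. The 10 tested members under 400 bases had a median log2 fold change of 0.16 with 3 higher (30.0%, where 30.2% of all genes were) and 1 lower. The 73 longer members had a median of 0.46 with 44 higher (60.3%) and 1 lower. The median log2 CPM of the short members minus that of the long ones ran from -0.78 to -0.49 in Sham rats, from -1.34 to -1.11 in MI rats and from -1.01 to -0.84 in iCarP+/Light+ rats. The 3 groups did not overlap in it, and its part in the values of short members was not tested.

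Having a tract near the start did not go with a larger share of calls. Of the tested members with a matched window, 19 of 33 with a tract were higher in MI (57.6%) with a median log2 fold change of 0.43, and 15 of 24 without one were higher (62.5%) with a median of 0.60, where 30.2% of all genes were higher.

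Members that vary strongly between rats of a group were marked as possible near-identical copies, between which reads can be split. By the criterion of a range of at least 2 on the log2 CPM scale within a group, only Rplp2 qualified, and 18 of 83 members had a range of at least 1, among them the paralogs Rpl3l, Rps27l and Rpl10l. Rplp2 was at 26.3, 6.14, 21.9 and 117 CPM in Sham, 182, 80.1, 11.0 and 91.1 CPM in MI and 7.33, 5.50, 10.8 and 6.12 CPM in iCarP+/Light+ rats. The widest range within a group was 18.6-fold, in Sham. Without Sham rat 5 the MI to Sham log2 fold change of this row was 2.33 and passed (edgeR adjusted p = 0.0150), and without MI rat 1 it was 0.52. A second row that the table describes as the same protein, LOC498555, held 952 to 2791 counts in every rat. With all 4 rows of the protein summed, the MI to Sham log2 fold change was 0.64 (SE 0.21, edgeR adjusted p = 0.0157), where the Rplp2 row alone gave 1.09 (SE 0.78, edgeR adjusted p = 0.238).

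The ubiquitin fusion gene Rps27a has a row on chromosome 14 and one on chromosome 5. The first was at 168, 303, 344 and 253 CPM in Sham and 369, 322, 646 and 417 CPM in MI. The second was at 289.9, 162, 123 and 124 CPM in Sham and 132, 347, 245 and 94.4 CPM in MI. In several rats one row was high where the other was low, and the log2 ranges narrowed when they were added. Within Sham the log2 range was 1.03 for the first row, 1.24 for the second and 0.31 for the sum. The sum rose in MI by 0.54 on the log2 scale (SE 0.17, edgeR adjusted p = 0.0142), the first row alone by 0.72 (SE 0.27, edgeR adjusted p = 0.0342), and the second gave 0.23 (SE 0.43, edgeR adjusted p = 0.659). The call for the first row was lost without Sham rat 1, Sham rat 5 or MI rat 4, with adjusted p of 0.0963, 0.0711 and 0.124. The Rpl12 rows summed also rose (log2 fold change 0.63, SE 0.15, edgeR adjusted p = 0.00210), while sums for Rpl21 (0.48, edgeR adjusted p = 0.0730), Rpl7a (0.14, edgeR adjusted p = 0.439), Rps19 (0.42, edgeR adjusted p = 0.205) and Rps4x (0.05, edgeR adjusted p = 0.720) did not pass.

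**Figure D4:**
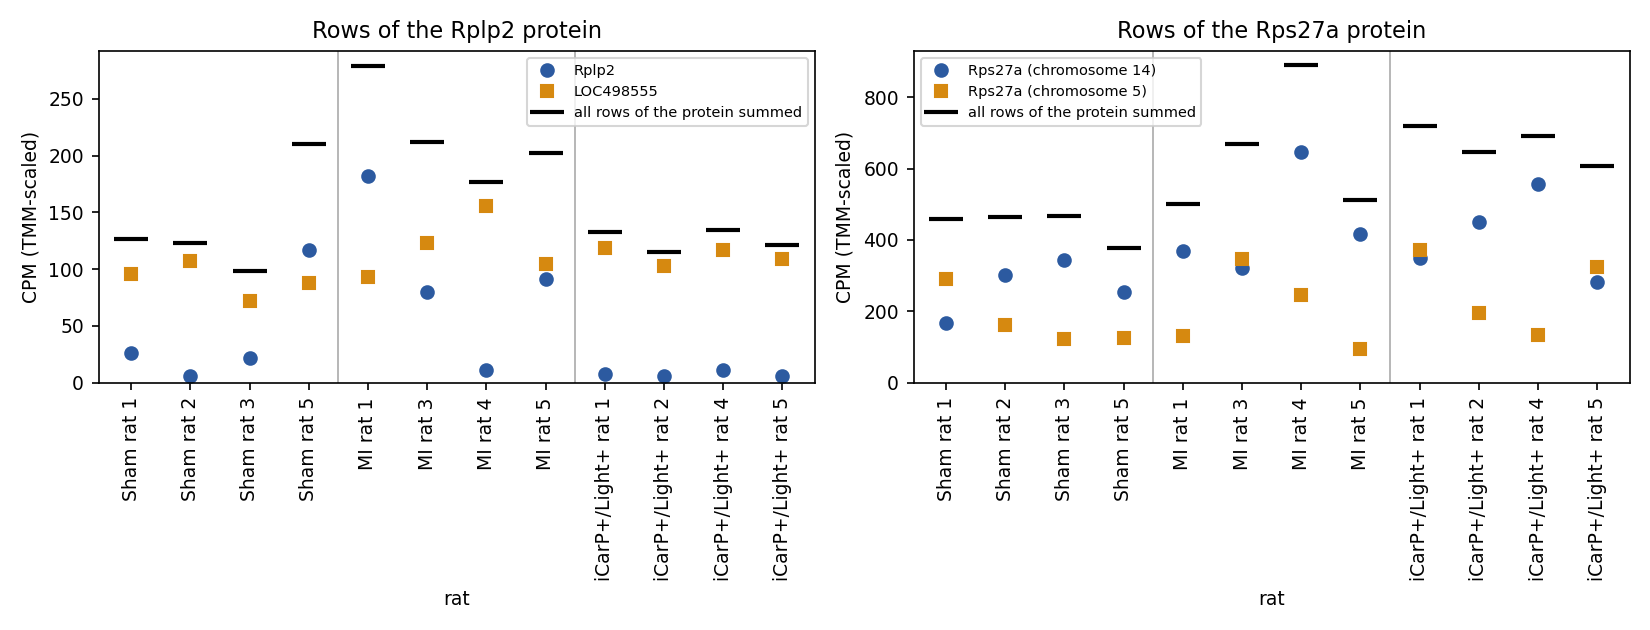
TMM-scaled CPM in each of the 12 rats for the Rplp2 row and its copy LOC498555 (left) and for the Rps27a rows of chromosomes 14 and 5 (right), with a black tick for the sum of all rows described as that protein. The Rplp2 row swings between 5.50 and 182 CPM, and the Rps27a sums span less on the log2 scale within each group than either row does.

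Some members were at or near 0. Rpl10a and Rpl23a had 0 counts in all 12 rats, which still allows up to 3 counts in a library. Rows outside the rule described as these proteins gave log2 fold changes of 0.46 for L10a, a pseudogene (edgeR adjusted p = 0.0200), and -0.50 for L23a (edgeR adjusted p = 0.134). Rpl8, which lies near the peptidyl transferase centre, had only 52 to 220 counts. A row outside the rule described as protein L8, LOC100360117, held 223 to 684 counts and rose by 0.65 (edgeR adjusted p = 0.00316), beside 1.06 for Rpl8 itself (SE 0.21, edgeR adjusted p = 0.000722). Of the 8 proteins whose standard name had no member row, 7 had a tested row under another name, and 3 of these rose in MI (where 30.2% of all genes were higher): the rows described as L22 (0.64, edgeR adjusted p = 0.00328), L35a (0.69, edgeR adjusted p = 0.0335) and S26 (0.82, edgeR adjusted p = 0.000143). The row described as S14, the fullest of them with 4838 to 11234 counts, gave 0.17 (edgeR adjusted p = 0.438). How reads matching several copies were counted is not given in the sources used here.

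iCarP+/Light+ against MI asks what the illuminated patch with alga changed in infarcted hearts. No member was higher and 1 of 83 was lower, Rplp2, by edgeR's test, where 11.6% of all genes were called higher and 2.01% lower. At an unadjusted p below 0.05, edgeR gave 1 member higher and 2 lower, where 3873 of all 15101 genes passed in either direction. DESeq2 called 0 higher and 2 lower after adjustment, and gave 1 higher and 10 lower at an unadjusted p below 0.05. With limma-voom 0 were called in either direction. The median log2 fold change was -0.12 for the members and 0.01 for all genes. Of 83 members, 69 lay below 0 (83.1%, against 48.5% of all genes). The groups separated upward in no member and downward in Rplp2 alone, where 12.1% and 4.37% of all genes did. Leaving out MI rat 4, the rat with the highest levels, moved this median to 0.01, and leaving out MI rat 1 moved it to -0.18. With total counts alone 20 members were called lower and none higher, where 18.0% of all genes were lower and 7.97% higher. That scaling took the median of all genes to -0.25 and the share of higher genes among all called from 85.2% to 30.7%. The members' median relative to all genes was -0.12 with it and -0.13 with TMM, a difference that by construction hardly depends on the scaling.

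The Rplp2 call (log2 fold change -3.62, SE 0.87, edgeR adjusted p = 0.0138) compares 4 low rats with MI rats that ranged from 11.0 to 182 CPM. It was lost with limma-voom (adjusted p = 0.0778). With its rows summed the difference shrank to -0.79 (SE 0.21, edgeR adjusted p = 0.0223). Rpl3 (-0.25, edgeR adjusted p = 0.242), Rpl3l (-0.50, edgeR adjusted p = 0.311) and Rps27l (-0.08, edgeR adjusted p = 0.824) did not pass on the log2 scale. Leaving out 1 rat moved Rpl3l between -0.76 (without iCarP+/Light+ rat 1) and -0.29 (without MI rat 3). The same step moved Rps27l between -0.21 (without MI rat 1) and 0.14 (without MI rat 4). Rpsa gave -0.26 (edgeR adjusted p = 0.230). Rpl8 had -0.62 (SE 0.21, edgeR adjusted p = 0.0701) and passed with DESeq2 (adjusted p = 0.0202), with a filter of at least 10 counts in every rat (edgeR adjusted p = 0.0408) and without MI rat 5 (edgeR adjusted p = 0.0328). Rplp0 and Rplp1 had -0.12 and -0.10 (edgeR adjusted p = 0.651 and 0.787), and Rplp0 moved between -0.016 without MI rat 4 and -0.19 without MI rat 5. The leukocyte list split: 5 of 9 markers were higher, led by S100a9 (3.53, edgeR adjusted p = 6.20e-05), while Lyz2 (-0.45, edgeR adjusted p = 0.292) and Cd68 (-0.39, edgeR adjusted p = 0.327) did not pass. Red blood cell markers were higher in 4 of 6 and fibroblast markers in 1 of 6, and none of the 10 cardiomyocyte and 5 endothelial markers passed. The part of these shifts in the members' values was not tested. The members varied less between iCarP+/Light+ rats than between MI rats, with a median SD of log2 CPM of 0.13 against 0.28, where all genes had 0.27 and 0.28.

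iCarP+/Light+ against Sham, which shares the Sham rats with the first comparison and the iCarP+/Light+ rats with the second, shows how much of the shift was present with the patch on. Of the 83 members 36 were higher (43.4%) and 2 lower, where 33.5% of all genes were higher and 33.0% lower. The groups separated upward in 42 members and downward in 1, where 31.9% and 31.6% of all genes did. The members' median log2 fold change was 0.35, against 0.02 over all genes, and 14 of 83 lay below 0 (16.9%, against 49.2% of all genes). The count of members higher was 21 without Sham rat 5, which had the lowest level of its group in 58 of the 83 members. With total counts alone 65 were higher and 2 lower, where 44.1% of all genes were higher and 24.1% lower, and the share of higher genes among all called went from 50.3% to 64.7%. Rpl3 led (log2 fold change 1.35, SE 0.13, edgeR adjusted p = 1.08e-06), followed by Rps27l (1.08, edgeR adjusted p = 0.000109), Rps2 (0.79, edgeR adjusted p = 0.00126) and Rps12 (0.78, edgeR adjusted p = 0.00163).

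The members called lower were Rpl3l (log2 fold change -4.29, SE 0.32, edgeR adjusted p = 1.74e-07) and Rplp2 (-2.52, SE 0.85, edgeR adjusted p = 0.0182). The Rplp2 call was lost without Sham rat 5 (-1.28, edgeR adjusted p = 0.130) and with its rows summed (-0.15, edgeR adjusted p = 0.554). Rplp0 (0.39, edgeR adjusted p = 0.0205), Rplp1 (0.48, edgeR adjusted p = 0.0306) and Rpsa (0.33, edgeR adjusted p = 0.0331) passed. Each of these calls was lost when Sham rat 3 or Sham rat 5 was left out. Rplp1 was also lost without Sham rat 1, iCarP+/Light+ rat 1 or iCarP+/Light+ rat 4, and Rpsa without Sham rat 2, iCarP+/Light+ rat 1 or iCarP+/Light+ rat 4, with adjusted p of at most 0.0976 in these fits.

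Ribosomes are assembled in the nucleolus, and 42 assembly factors and RNA polymerase I genes were read from the same fit. Of the 41 tested, 36 were higher in MI than in Sham (87.8%, against 30.2% of all genes) and none lower, with a median log2 fold change of 1.21, against 0.45 for the ribosomal protein genes. Fbl, the methyltransferase of ribosomal RNA, went from 12.7 to 22.8 CPM in Sham to 73.4 to 106 CPM in MI (log2 fold change 2.17, SE 0.18, edgeR adjusted p = 5.53e-07). Heatr1 (2.28, edgeR adjusted p = 1.05e-05) and Rrp12 (1.97, edgeR adjusted p = 5.15e-07), assembly factors of the small subunit, rose as much. Nhp2 had the highest value, 5.55 (edgeR adjusted p = 0.0197), but it rested on MI rat 5 at 75.3 CPM, where the other MI rats were at 0.910 to 1.96, and without that rat it was 1.69 (edgeR adjusted p = 0.317). In iCarP+/Light+ against MI none passed, 39 of 41 lay below 0 (95.1%, against 48.5% of all genes) and the median was -0.12. That median was -0.23 without iCarP+/Light+ rat 5 and -0.074 without iCarP+/Light+ rat 2. At an unadjusted p below 0.05 edgeR gave 5 of the 41, where 3873 of all 15101 genes passed. With total counts alone some of these genes were called lower, and their count is given with the processing checks below. Against Sham, 35 of the 41 were higher in iCarP+/Light+ rats (85.4%, where 33.5% of all genes were) and none lower. Nhp2 is counted there, though iCarP+/Light+ rats 2 and 5 were at 45.9 and 52.9 CPM and rats 1 and 4 at 0.939 and 1.49. Among subunit proteins under other names, Rack1 rose in MI (0.38, edgeR adjusted p = 0.00842), while Fau (0.33, edgeR adjusted p = 0.228) did not pass. The assembly genes differed from the ribosomal protein genes at their starts too. Of 38 with a matched window 4 (10.5%) had a tract near the start, and the hexamer CACGTG, which reads the same on both strands, was within the 300 bases around the start in 13 (34.2%), against 8.20% of the matched ribosomal protein genes and 6.65% of all promoters.

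**Figure D5:**
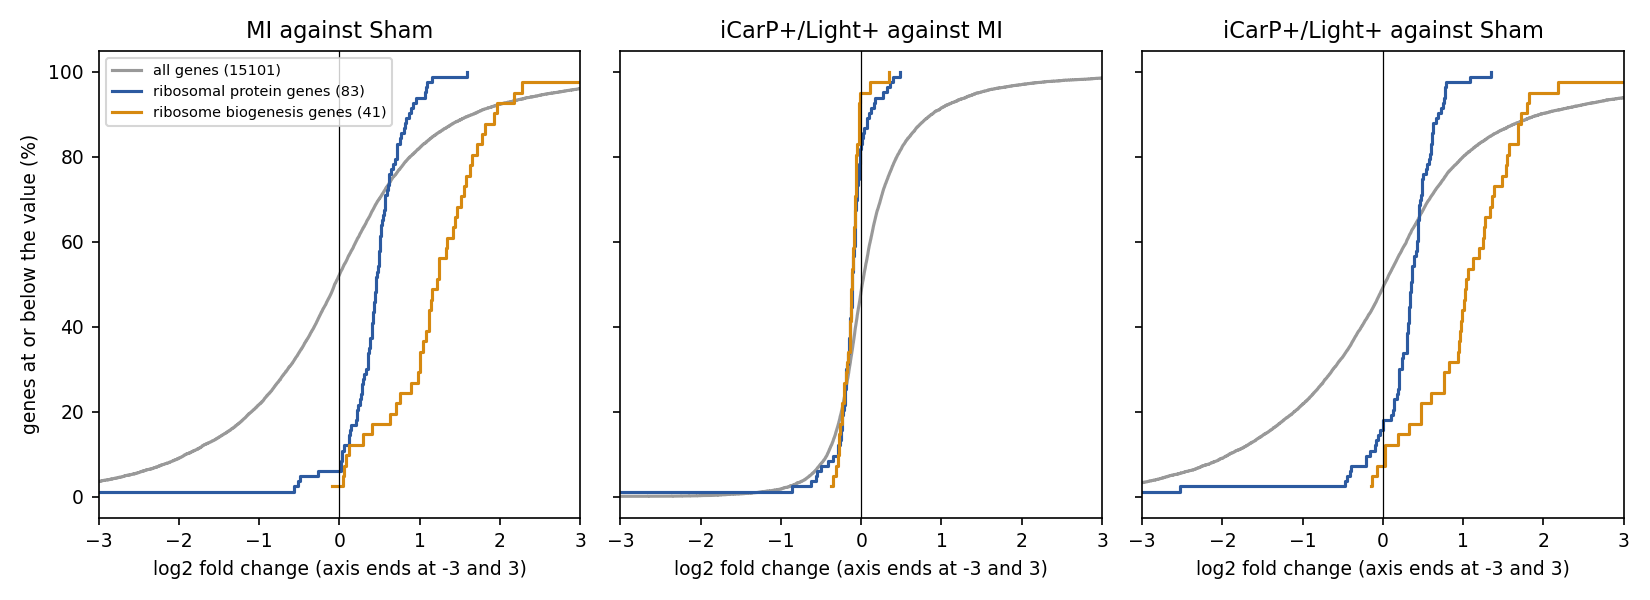
Cumulative percent of genes at or below each log2 fold change in the 3 comparisons, for all 15101 genes tested, the 83 ribosomal protein genes and the 41 ribosome biogenesis genes, on an axis that ends at -3 and 3. In MI against Sham the ribosomal protein curve rises steeply around its median of 0.45 and the biogenesis curve around 1.21, and in iCarP+/Light+ against MI both cluster near -0.12.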

How the data were processed

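Total RNA of 12 left ventricles was sequenced, and the authors deposited raw read counts per gene, not normalized, for each rat. The submitters' processing notes name HISAT2, featureCounts and rn6. Versions, strand setting and the treatment of reads matching several genes are not given in the sources used here. Counts were fitted in R 4.3.3 with edgeR 4.0.16 (filterByExpr with minimum count 10, TMM, quasi-likelihood test, 1 mean per group, all 12 rats), which tested 15101 genes. Benjamini-Hochberg adjustment ran over all of them with a threshold of 0.05. Standard errors are the log2 fold change divided by the square root of the F statistic. Chi-square per gene between rats of a group was 14.1 to 114, so no library was a copy. Numbered samples were taken as separate rats, which the labels do not state, so p-values measure only the spread between samples, part of which may be technical. No sequencing batch is named.

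Paralog ratios added 2 counts to each gene and were compared by exact permutation. Alternatives were DESeq2 1.42.0 size factors, total counts alone, DESeq2, limma-voom (limma 3.58.1), other filters on low counts, no mitochondrial genes, only the compared rats, a replicate block, 0.5 in place of 2 counts in the ratios, and each rat left out. Summing rows of one protein, for duplicated symbols and for members with a range of at least 1, leaving Rplp2 out of the counts, and leaving Myh7 out of the muscle marker mean were added after values were seen. Methods were tested on simulated data. Members and lists were chosen with earlier results of these data known.

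Named members were the paralog pairs, the stalk genes and Rpsa, Rpl5, Rpl11, Rps6, Rps19, Rpl13a and Rps27a, the 4 highest and 4 lowest called in each comparison, the 5 highest and 5 lowest per listed length, and those with a within-group log2 range of at least 2 at a mean of at least 1 CPM. From the assembly list the 4 highest called in MI against Sham were named, since no assembly gene was called lower. The rows of L8, L22, L35a, S14 and S26 under other names, Rpl12, Rpl17, Rpl21, Rpl7a, Rps21 and Rps4x were named after their values were seen. Start windows came from RefSeq (GRCr8), and the first listed window of a gene was used. A window shared by 2 member rows was left out. Plots were drawn with matplotlib 3.10.9.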

Additional observations from a re-analysis of the deposited data

Results flagged for a closer look

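In 2 of 99 groups looked at, 1 rat stood far from the other 3, measured as its gap to the nearest rat divided by the whole range of the group on the log2 scale. Rplp1 in Sham rat 5 was at 516 CPM, with the other Sham rats at 597 to 606, a gap of 0.900 of the range. Rplp0 in iCarP+/Light+ rat 1 was at 2150.2 CPM, with the others at 1855 to 1873, a gap of 0.934 of the range. Chance alone would give about 4.95 such groups among 99.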

How the results depend on the processing

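Of 684 values recomputed under settings other than leaving out a rat, 618 were counted as unchanged. For a gene or ratio this meant the same direction and call, and for a count staying within 1.5 times. For a median it meant moving by less than 0.22, the largest within-group SD of the members' mean log2 CPM, whatever its sign. Total counts alone moved the most. The members' medians became 1.02 in MI against Sham, -0.37 in iCarP+/Light+ against MI and 0.67 in iCarP+/Light+ against Sham, those of all genes 0.52, -0.25 and 0.33, and those of the biogenesis genes 1.80, -0.37 and 1.35. Members called were then 74 higher and 1 lower, 0 higher and 20 lower, and 65 higher. In iCarP+/Light+ against MI 24 biogenesis genes were then called lower, where 18.0% of all genes were. In that setting Rpl10l was 0.050 and Rps27 was 0.079 in MI against Sham.

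Calls of lower members, 2 in MI against Sham, became 4 with limma-voom and 1 with only the compared rats. In iCarP+/Light+ against MI the 1 lower member became 2 with DESeq2, 0 with limma-voom, 2 with at least 10 counts in every rat and 0 when Rplp2 was not counted, and 1 biogenesis gene became lower with DESeq2 size factors, with DESeq2 and with at least 10 counts in every rat. In iCarP+/Light+ against Sham the 2 lower members became 1 with limma-voom and 1 when Rplp2 was not counted. Samples that share a number across groups were taken as different animals, which the labels do not state. Their deviations from the group means correlated between -0.150 and 0.0654. With means of only 4 rats removed, these values showed no clear pairing but cannot exclude a batch that follows the rat numbers. A replicate block on these numbers gave 18 members higher and 1 lower in iCarP+/Light+ against Sham, where the main fit gave 36 and 2. It gave 1 lower in MI against Sham, 0 lower in iCarP+/Light+ against MI, and -0.013 for Rpl39 in MI against Sham. Of the named members, Rpl7, Rpl36al, Rpl41, Rplp1 and Rps29 lost their MI against Sham calls with the block. Rplp0, Rplp1, Rplp2 and Rpsa lost their iCarP+/Light+ against Sham calls with it.

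With 1 rat left out at a time, 925 of 996 values were unchanged by the same rules, which let a median near 0 change sign. Members called in MI against Sham ranged from 39 to 54 higher and 1 to 3 lower. In iCarP+/Light+ against MI, 1 to 2 were lower, with 0 to 1 biogenesis genes higher and 0 to 1 lower, and the members' median ranged from -0.18 to 0.01. In iCarP+/Light+ against Sham, 21 to 45 were higher and 1 to 3 lower. The log2 ratio of Rpl10l to Rpl10 ranged from -1.18 to -0.82 in MI against Sham, from -0.98 to -0.77 in iCarP+/Light+ against Sham and from -0.067 to 0.29 in iCarP+/Light+ against MI. That of Rpl36al to Rpl36a ranged from -0.17 to 0.091, from -0.18 to 0.055 and from -0.16 to 0.10 in the same order, and that of Rpl7l1 to Rpl7 from 0.13 to 0.47, from 0.36 to 0.56 and from 0.00 to 0.34. That of Rps27l to Rps27 ranged from 1.57 to 1.74, from 0.99 to 1.14 and from -0.67 to -0.50, and that of Rpl3l to Rpl3 from -5.67 to -5.12, from -5.81 to -5.46 and from -0.56 to -0.00. Log2 fold changes that turned sign ranged from -0.13 to 0.14 for Rpl39 and from -0.15 to 0.59 for the Rps27a row of chromosome 5 in MI against Sham, and from -0.23 to 0.10 for Rplp1 and from -0.21 to 0.14 for Rps27l in iCarP+/Light+ against MI. The causes were not tested.

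A count of 0 allows up to 3 counts in a library for the rows at 0, and whether depth or the treatment of near-identical copies keeps them there was not tested. With 4 rats a group, the exact permutation p of a paralog ratio could not go below 0.0286.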
